A study of Homo sapiens with 3 samples.

Results

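The anaphase-promoting complex (APC/C) and the cullin-RING ligases were examined through 37 genes, fixed by name, out of 22714 gene names measured in TC32, an established Ewing sarcoma cell line. The names covered 14 subunits of the APC/C, 4 of its activators, inhibitor and substrates, 4 ubiquitin-conjugating enzymes, 8 genes of cullins and the SCF core, and 7 substrate receptors and CKS proteins. They stood on 40 loci, and FBXO5 shared its locus with the neighbouring gene MTRF1L, so that its values hold both. Messenger RNA was sequenced in 3 libraries of total RNA, 1 of control cells, 1 of cells with knockdown of the fusion protein EWS-FLI1, and 1 of cells kept for 15 hours in 3 µM YK-4-279 in DMSO, a small molecule known for blocking the partnership of the fusion with an RNA helicase. All 3 came from the same line grown in serum-containing medium. The labels give neither the hairpin nor the length of the knockdown, and they name the control only as wild type, with no word on vehicle. With 1 library per group no spread between cultures is known, no test was possible, and "higher" and "lower" describe these libraries.

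Ubiquitin ligases of both families attach ubiquitin to proteins and so mark them for the proteasome. The APC/C, switched on by CDC20 in mitosis and by FZR1 in G1, ends mitosis by destroying cyclin B and securin. Cullin ligases are built on a cullin scaffold and a RING protein, and take up exchangeable receptors. The SCF form, with CUL1, SKP1 and an F-box protein such as SKP2, removes CDK inhibitors and cyclins at the entry to S phase and is active through much of the cell cycle.

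Levels are given as FPKM (fragments relative to gene length and library size) multiplied by a factor per library chosen so that the median gene has the same level in all 3, here called scaled FPKM. The factors were 0.325 for the control, 1.44 for the knockdown and 2.12 for the YK-4-279 library. Differences are those of log2(scaled FPKM + 1), called log2 ratios, and understate the change of scarce genes. A fold is this ratio taken out of the log scale. A gene was counted as higher or lower from a log2 ratio of 1, a 2-fold difference. Of the 37 genes, 35 had a mean deposited FPKM of at least 1 and were compared, as were 9939 genes in all. Standard errors (SE) come from estimated fragments and cover counting error only.

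FLI1, the part of the fusion that the knockdown should remove, had 21.4 scaled FPKM in the control, 2.13 after knockdown and 17.6 with YK-4-279. Of 9 Ewing sarcoma markers, 8 were above 0 in every library and CD99, a defining surface antigen of the tumour, was listed at 0 in all 3. The summed level of these markers was 361 scaled FPKM in the control, 107 after knockdown and 329 with YK-4-279. All 6 fibroblast markers were above 0 and summed to 26.5, 57.7 and 28.4 scaled FPKM. LUM, FAP and PDGFRB were higher after knockdown and DCN was lower, and their part in the results below was not tested. Markers of endothelium summed to between 0.13 and 1.15, those of leukocytes to between 14.4 and 26.6, nearly all from CD68 with CD3E listed at 0 in all 3, and those of epithelium to between 2.53 and 6.56. Of 4 cycling-cell markers, PCNA was lower after knockdown, at 138, 38.7 and 110 scaled FPKM in the 3 libraries. TOP2A stood just short of the threshold (73.9, 36.5 and 94.3), and MKI67 (6.67, 7.75 and 8.90) and MCM2 (3.87, 5.53 and 3.77) had log2 ratios of 0.19 and 0.42 after knockdown. Their summed level of 222, 88.4 and 217 thus came mostly from PCNA and TOP2A.

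Promoters of 6 genes are shown, chosen by hand among the genes past the threshold in any of the comparisons. Other such genes, with differences as large or larger than that of UBE2S, are not shown. Each promoter window covers 250 bases before and 50 bases after the annotated start, read 5′ to 3′ on the strand of the gene, from RefSeq on GRCh38.p14. They lie at chr1:154974431-154974730 (plus strand) for CKS1B, chr9:89310945-89311244 (plus) for CKS2, chr5:36151861-36152160 (plus) for SKP2, chr5:160421605-160421904 (plus, the first of 2 windows) for PTTG1, chr1:43358731-43359030 (plus) for CDC20 and chr19:55407739-55408038 (minus) for UBE2S. Capitals mark matches on either strand to the motifs named after them.
CKS1B: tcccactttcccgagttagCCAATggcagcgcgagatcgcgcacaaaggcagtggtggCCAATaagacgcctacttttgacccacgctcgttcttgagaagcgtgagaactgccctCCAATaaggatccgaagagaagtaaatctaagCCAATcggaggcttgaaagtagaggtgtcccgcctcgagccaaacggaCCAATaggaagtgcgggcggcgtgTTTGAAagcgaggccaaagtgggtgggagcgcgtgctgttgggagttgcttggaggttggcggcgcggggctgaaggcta
CKS2: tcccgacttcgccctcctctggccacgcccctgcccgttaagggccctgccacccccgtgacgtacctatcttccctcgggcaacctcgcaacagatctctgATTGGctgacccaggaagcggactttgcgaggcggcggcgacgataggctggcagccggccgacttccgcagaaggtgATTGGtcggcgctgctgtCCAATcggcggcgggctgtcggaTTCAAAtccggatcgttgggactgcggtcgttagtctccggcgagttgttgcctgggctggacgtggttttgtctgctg
SKP2: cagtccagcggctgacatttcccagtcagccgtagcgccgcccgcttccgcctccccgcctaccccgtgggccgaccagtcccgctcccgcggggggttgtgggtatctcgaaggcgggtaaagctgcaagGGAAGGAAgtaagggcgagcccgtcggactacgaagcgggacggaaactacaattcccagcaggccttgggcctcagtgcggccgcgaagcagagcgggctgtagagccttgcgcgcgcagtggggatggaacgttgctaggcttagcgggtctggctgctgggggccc
PTTG1: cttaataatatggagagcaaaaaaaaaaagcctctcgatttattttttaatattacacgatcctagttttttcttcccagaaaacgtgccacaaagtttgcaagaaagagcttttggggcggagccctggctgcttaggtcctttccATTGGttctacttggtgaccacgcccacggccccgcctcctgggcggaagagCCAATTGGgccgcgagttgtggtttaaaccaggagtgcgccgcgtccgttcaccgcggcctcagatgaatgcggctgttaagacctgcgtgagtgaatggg
CDC20: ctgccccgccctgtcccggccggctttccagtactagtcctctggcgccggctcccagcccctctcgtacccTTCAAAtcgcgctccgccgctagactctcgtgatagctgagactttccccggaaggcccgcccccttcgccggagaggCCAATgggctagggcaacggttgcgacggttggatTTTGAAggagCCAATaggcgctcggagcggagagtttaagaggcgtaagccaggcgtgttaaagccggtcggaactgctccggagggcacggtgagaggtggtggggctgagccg
UBE2S: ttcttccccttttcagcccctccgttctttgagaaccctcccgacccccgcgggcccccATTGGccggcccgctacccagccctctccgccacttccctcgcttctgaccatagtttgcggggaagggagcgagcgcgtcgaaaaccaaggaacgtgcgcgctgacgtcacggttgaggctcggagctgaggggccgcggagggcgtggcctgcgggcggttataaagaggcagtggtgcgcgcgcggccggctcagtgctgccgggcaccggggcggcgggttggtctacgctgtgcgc

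The motifs searched were the cell cycle homology region CHR (TTTGAA or TTCGAA), the CCAAT box (CCAAT), E2F sites (TTTCCCGC, TTTGGCGC, TTTCGCGC, TTTGCCGC or TTCCCGCC, of which the first and the last can overlap), the repeat that EWS-FLI1 binds (GGAAGGAA) and an ETS site (CCGGAAGT). CKS1B had TTTGAA 30 bases before its start and CCAAT boxes from 54 bases upstream. CKS2 had TTTGAA on the opposite strand 29 bases before its start, with a CCAAT box 52 bases upstream. CDC20 held TTTGAA 65 and 178 bases before its start. SKP2 held GGAAGGAA 119 bases before its start and none of the other letters, while PTTG1 and UBE2S held only CCAAT boxes.

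Over all 35116 windows of this length, 16.4% held a CHR, 34.6% a CCAAT box, 5.58% an E2F site, 3.67% GGAAGGAA and 4.14% the ETS site. Windows were found for 35 of the 37 genes, all but BTRC and UBE2C, and of their 65 windows 12 (18.5%) held a CHR, 22 (33.8%) a CCAAT box, 8 (12.3%) an E2F site, 3 (4.62%) GGAAGGAA and 6 (9.23%) the ETS site. Counting a gene once if any of its windows matched, a CHR was found in 3 of the 10 genes that were lower in the knockdown library and have a window, and in 8 of the 23 that were not. For the CCAAT box these counts were 6 of 10 and 10 of 23, and for E2F sites 2 and 4. Beyond SKP2, GGAAGGAA was found in ANAPC15, and the ETS site stood in ANAPC4, ANAPC11, CDC16 and CUL4A. These matches are letters in a window and say nothing of binding.

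In the control, the most abundant of the 37 genes were CKS1B, CKS2, PTTG1, SKP1 and RBX1, in that order, at 847, 734, 354, 300 and 230 scaled FPKM. The same 5 genes led in the other 2 libraries, with SKP1 first after knockdown and CKS2 first with YK-4-279. ANAPC2, the cullin-like subunit of the APC/C, was the scarcest in each library at 0.0275, 0.0312 and 0.0312 scaled FPKM, which rests on about 3.41, 3.28 and 3.06 estimated fragments. FZR1, the G1 activator, had 0.0885 scaled FPKM in the control, 0.745 after knockdown and 0.288 with YK-4-279, from about 6.21, 44.3 and 16.0 fragments. These 2 genes were below the minimum and are not counted among those compared. Across the 37 genes the level was lower where the transcript was longer (Spearman's rho -0.61). Its rank correlation with GC content was near 0 (rho -0.02), a description over genes that share the same libraries. ANAPC2, FZR1 and CDC34, ranked 37, 36 and 35 in each library, nevertheless had a GC content of 63.3%, 63.1% and 62.2%. The median of the 37 genes was 44.6%, and UBE2S, the highest at 65.8%, ranked 24 in the control. Whether GC content bears on the values of these scarce genes was not tested.

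**Figure D1:**
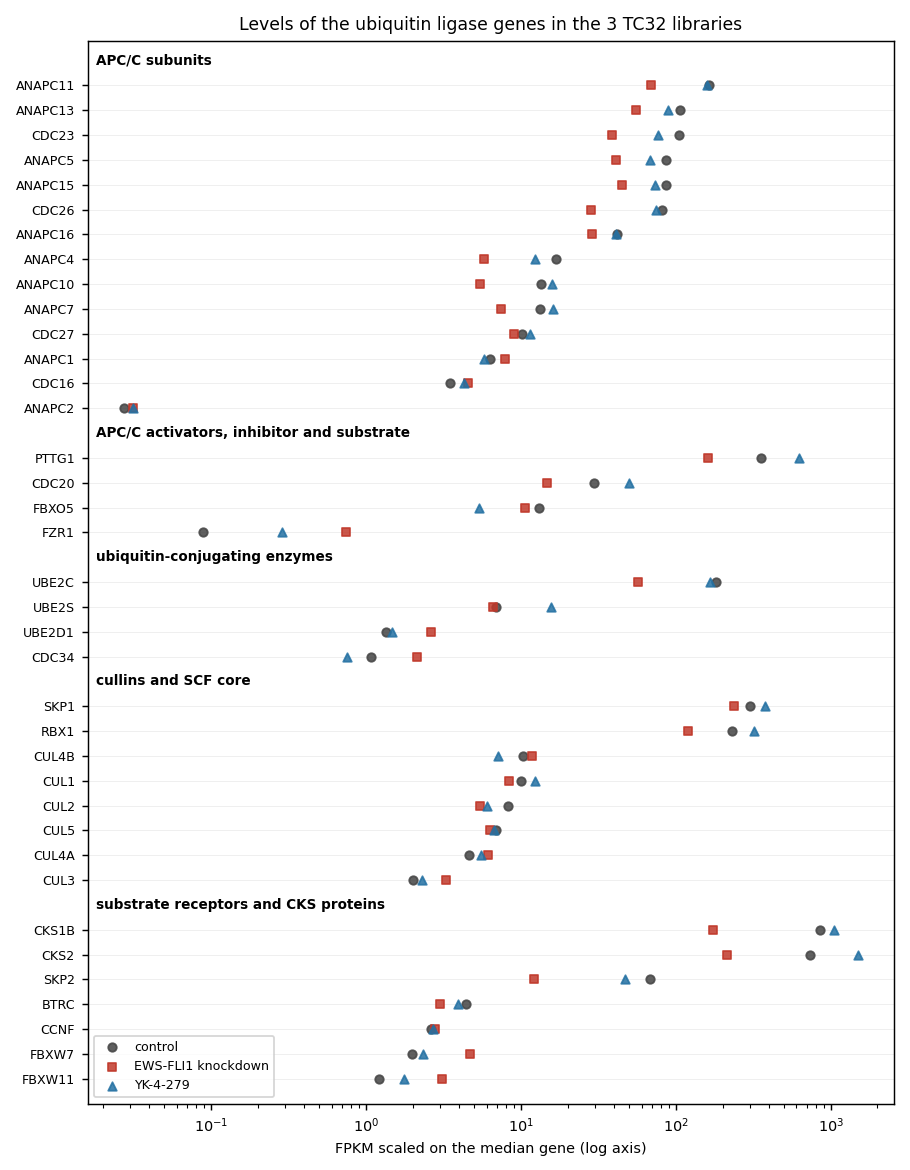
Scaled FPKM (horizontal log axis) of the 37 genes, grouped by role (vertical axis), with 1 point per library for the control (circles), the EWS-FLI1 knockdown (squares) and YK-4-279 (triangles). CKS1B and CKS2 lie between 173 and 1491 scaled FPKM, while ANAPC2 and FZR1 stay below 1 in all 3 libraries.

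After knockdown of EWS-FLI1, 11 of the 35 compared genes (31.4%) were lower and 0 were higher. Of all 9939 compared genes, 17.0% were lower and 17.3% higher (34.2% in all). The 11 were SKP2, CKS1B, CKS2, UBE2C, CDC26, CDC23, ANAPC4, ANAPC11, ANAPC10, ANAPC5 and PTTG1. The median log2 ratio of the 35 was -0.52, against 0.01 over all compared genes. In a bulk library, fewer cells that express a gene and less of its RNA per cell cannot be told apart.

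The log2 ratio after knockdown varied with the level of a gene, and 15 of the 35 genes fell in the top level group when compared genes were ranked by level into 5 equal groups. In that group 44.2% of all genes were lower and 5.28% higher, while 9 of the 15 were lower, with medians of -0.89 and -1.13. Among the other 20 genes the median was 0.01, and 2 were lower, ANAPC4 and ANAPC10. Both stood in the next level group, where 2 of 8 ligase genes and 25.3% of all genes were lower. Set against the median of genes of the same level, 2 of the 35 genes stayed lower by at least 1, SKP2 (-1.58) and CKS1B (-1.34), where 9.99% of all compared genes did. The rank correlation of log2 ratio with level was -0.83 over the 35 genes and -0.47 over all 9939, both without independent points. With transcript length it was 0.56 over the 35 genes. Level and length were related to each other, and their separate parts in the log2 ratio were not tested.

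**Figure D2:**
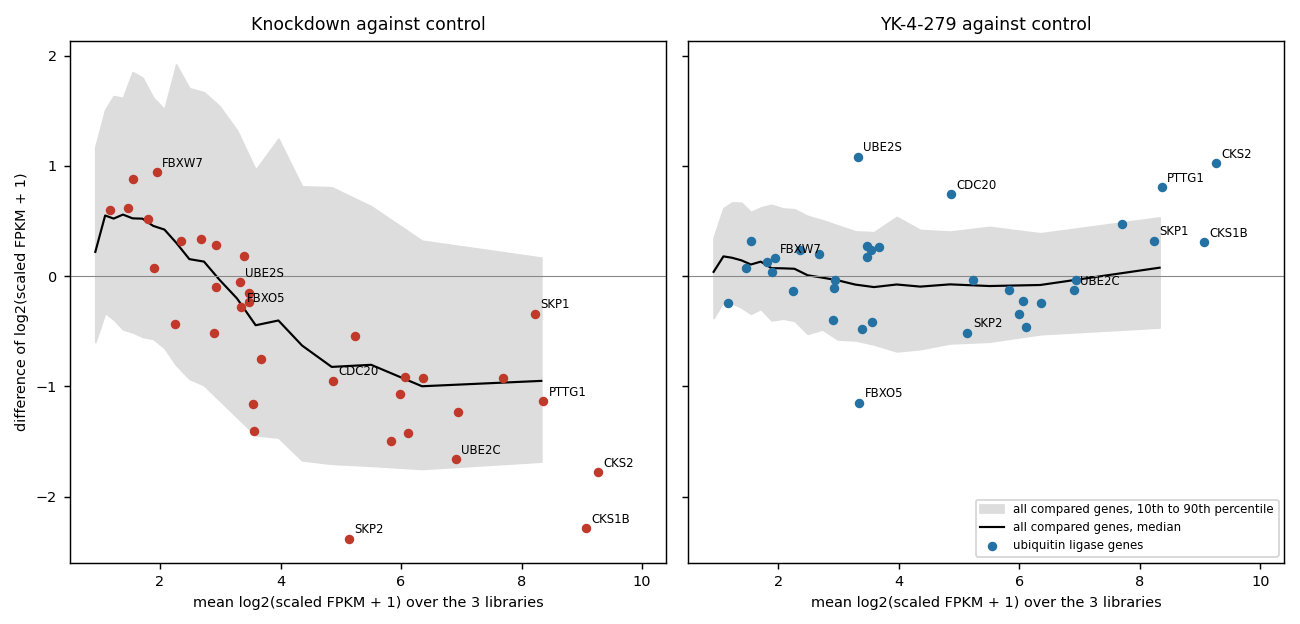
Log2 ratio to the control (vertical axis) against the mean of log2(scaled FPKM + 1) over the 3 libraries (horizontal axis), for the knockdown (left) and YK-4-279 (right), with 1 coloured point per compared ligase gene; the line is the median and the grey band the 10th to 90th percentile of all compared genes in 20 bins of level. After knockdown SKP2, CKS1B and CKS2 lie below the 10th percentile of genes of their level, and with YK-4-279 UBE2S, CKS2, CDC20 and PTTG1 lie above the 90th and FBXO5 below the 10th.

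Most subunits of the APC/C itself were at or below their control level after knockdown. Of the 13 compared, 6 (46.2%) were lower, 0 were higher and 11 had a log2 ratio under 0, with a median of -0.92. Over all compared genes 17.0% were lower and 17.3% higher. In the top level group, which held CDC26, CDC23, ANAPC11 and ANAPC5 among the lower subunits, 44.2% of all genes were lower. Against genes of the same level the median of the subunits was -0.07. CDC26, a small subunit that stabilises the complex, had 81.9 scaled FPKM in the control, 28.5 after knockdown and 74.9 with YK-4-279. It was thus the lowest subunit after knockdown (log2 ratio -1.49, SE 0.05) and near its control level with the compound (-0.13, SE 0.04).

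CDC23, a subunit of the arm that binds substrates and activators, had 105 scaled FPKM in the control, 38.8 after knockdown and 76.3 with YK-4-279. Its log2 ratios were -1.42 and -0.46, the latter the lowest of any subunit with the compound. ANAPC4, of the platform, had 16.9, 5.76 and 12.4 scaled FPKM in the same order (log2 ratios -1.41 and -0.42). For both genes the knockdown library was the lowest of the 3 and the control the highest.

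ANAPC11, the RING subunit that receives the ubiquitin-charged enzyme, had 164 scaled FPKM in the control, 69.3 after knockdown and 160 with YK-4-279 (log2 ratios -1.23 and -0.04). ANAPC10, which helps to recognise the destruction box of substrates, had 13.4, 5.46 and 15.9 (-1.16 and 0.23). ANAPC5, also of the platform, had 86.9, 40.9 and 68.3 (-1.07 and -0.34). ANAPC11 and ANAPC10 were thus low in the knockdown library alone, while ANAPC5 had an intermediate level with the compound.

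The other subunits did not reach the threshold against the control. ANAPC7 had 13.3, 7.48 and 16.2 scaled FPKM in control, knockdown and YK-4-279, and its log2 ratio with the compound (0.26) was the highest of the subunits there. CDC16 had 3.49, 4.58 and 4.30, and its log2 ratio of 0.31 was the highest of the subunits after knockdown. ANAPC13, ANAPC15, ANAPC16, CDC27 and ANAPC1 ranged from -0.92 to 0.28 after knockdown and from -0.25 to 0.17 with YK-4-279. Against genes of the same level, 0 of the 13 subunits differed by 1 or more in either comparison with the control. The subunits of the complex that were compared thus spanned from -1.49 to 0.31 after knockdown and from -0.46 to 0.26 with the compound.

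PTTG1, the securin that keeps sister chromatids from separating until the APC/C destroys it, had 354 scaled FPKM in the control, 161 after knockdown and 620 with YK-4-279. CDC20, the mitotic activator, had 29.5, 14.8 and 50.1 in the same order. Both genes were lowest after knockdown and highest with the compound. Against genes of the same level PTTG1 stood at -0.18 and CDC20 at -0.12 after knockdown, and at 0.73 and 0.82 with the compound. PTTG1 had a log2 ratio of -1.13 (SE 0.02) after knockdown and of 0.80 (SE 0.02) with YK-4-279, and CDC20 had log2 ratios of -0.95 (SE 0.05) and 0.74 (SE 0.04). The FPKM of PTTG1 was 12 times that of CDC20 in the control, 10.8 times in the knockdown library and 12.4 times with YK-4-279.

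FBXO5, or EMI1, which keeps the APC/C inactive through S and G2 phase, was read together with MTRF1L. The shared locus had 13.1 scaled FPKM in the control, 10.6 after knockdown and 5.38 with YK-4-279. It was 2.21-fold lower with the compound (log2 ratio -1.15, SE 0.07) and had a log2 ratio of -0.28 after knockdown, so that the YK-4-279 library stood apart from the other 2. The share of FBXO5 in it is unknown.

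Among the ubiquitin-conjugating enzymes, those that serve the APC/C differed from each other. UBE2C, which places the first ubiquitins on APC/C substrates, had 181 scaled FPKM in the control, 56.6 after knockdown and 165 with YK-4-279. It was 3.16-fold lower after knockdown (log2 ratio -1.66, SE 0.04) and had a log2 ratio of -0.13 with the compound. UBE2S, which lengthens the chains, had 6.87, 6.56 and 15.7 scaled FPKM, so that control and knockdown lay close together and the YK-4-279 library was high. Its log2 ratio was 1.08 (SE 0.10) with the compound and -0.06 (SE 0.12) after knockdown. Deposited FPKM of UBE2C was 26.3 times that of UBE2S in the control, 8.62 times in the knockdown library and 10.5 times with YK-4-279.

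CDC34, the enzyme of the SCF, and UBE2D1, which can serve many ligases, were scarce. CDC34 had 1.08 scaled FPKM in the control, 2.14 after knockdown and 0.753 with YK-4-279 (log2 ratios 0.60 and -0.24, SE 0.14 and 0.15), from 56.0, 94.3 and 30.9 estimated fragments. UBE2D1 had 1.35, 2.61 and 1.47 (0.62 and 0.07), the highest log2 ratio of these enzymes after knockdown. Both were highest in the knockdown library, without reaching the threshold.

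None of the 8 genes of cullins and the SCF core was higher or lower in either comparison with the control. Their log2 ratios ran from -0.93 to 0.52 after knockdown and from -0.48 to 0.47 with YK-4-279. RBX1, the RING protein of most cullin ligases, had 230 scaled FPKM in the control, 120 after knockdown and 319 with the compound, the extremes of this group at -0.93 and 0.47. SKP1, the adaptor between CUL1 and F-box proteins, had 300, 237 and 375. The small partners of the cullins were thus both lowest after knockdown and highest with YK-4-279. Against genes of the same level, however, SKP1 stood at 0.61 and RBX1 at 0.02 after knockdown. With the compound these values were 0.24 and 0.40.

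The 6 cullin scaffolds had log2 ratios from -0.52 to 0.52 after knockdown and from -0.48 to 0.28 with YK-4-279. CUL3 had 2.01 scaled FPKM in the control, 3.30 after knockdown and 2.29 with YK-4-279 (log2 ratios 0.52 and 0.13), the highest of the group after knockdown. CUL4B had 10.3, 11.8 and 7.09 (0.18 and -0.48), the lowest of the group with the compound. Its paralogue CUL4A had 4.65, 6.13 and 5.49 (0.33 and 0.20), and the FPKM of CUL4A relative to CUL4B was 0.453 in the control, 0.521 after knockdown and 0.774 with YK-4-279. CUL1, CUL2 and CUL5 ranged from -0.52 to -0.10 after knockdown and from -0.40 to 0.28 with the compound.

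The substrate receptors and CKS proteins held the largest differences of the 35 genes after knockdown. SKP2, the F-box protein that takes up the CDK inhibitor encoded by CDKN1B, had 209 deposited FPKM in the control, 8.46 after knockdown and 22.3 with YK-4-279, or 67.8, 12.2 and 47.2 after scaling. It was 5.22-fold lower after knockdown (log2 ratio -2.38, SE 0.05), the lowest of the 35 genes, and had a log2 ratio of -0.51 (SE 0.03) with the compound. The FPKM of SKP2 relative to that of its scaffold CUL1 was 6.78 in the control, 1.46 after knockdown and 3.83 with YK-4-279.

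CKS1B, the cofactor with which SKP2 binds that inhibitor, had 2610 deposited FPKM in the control, 120 after knockdown and 496 with YK-4-279, or 847, 173 and 1050 after scaling. It was 4.88-fold lower after knockdown (log2 ratio -2.29, SE 0.02) and had a log2 ratio of 0.31 (SE 0.01) with the compound. CKS2, its paralogue, which also binds cyclin-dependent kinases, had 734, 213 and 1491 scaled FPKM. It was 3.43-fold lower after knockdown (-1.78, SE 0.02) and 2.03-fold higher with YK-4-279 (1.02, SE 0.01). CKS2 was the 1 gene that passed the threshold in both comparisons, in opposite directions. Against genes of the same level it stood at -0.83 and 0.95, short of the threshold in both. Its higher call with YK-4-279 was kept under 8 of 12 alternative settings and reversed without scaling (-1.68). CKS1B was the more abundant of the pair in the control (FPKM ratio 1.16) and the less abundant in the knockdown library (0.810) and with YK-4-279 (0.704).

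The remaining receptors were scarce and did not reach the threshold with 1 added before log2. FBXW7, which marks cyclin E for destruction, had 1.98 scaled FPKM in the control, 4.72 after knockdown and 2.33 with YK-4-279 (log2 ratios 0.94 and 0.16), the highest of the 35 genes after knockdown. FBXW11 had 1.22, 3.08 and 1.76 (0.88 and 0.31), and its paralogue BTRC, also a receptor of phosphorylated substrates such as beta-catenin, had 4.41, 3.00 and 3.93 (-0.44 and -0.14). With 0.1 added in place of 1, FBXW7 (1.21) and FBXW11 (1.27) counted as higher after knockdown. The share of all genes that were higher under that setting is not given here. With 1 added, 27.0% of all genes in their level group were higher after knockdown, with a median of 0.48. Against genes of the same level FBXW7 stood at 0.49 and FBXW11 at 0.36, short of the threshold. BTRC was 3.62 times as abundant in FPKM as FBXW11 in the control, 0.972 times in the knockdown library and 2.23 times with YK-4-279. CCNF, or cyclin F, had 2.62, 2.80 and 2.72 and was near level across the libraries.

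**Figure D3:**
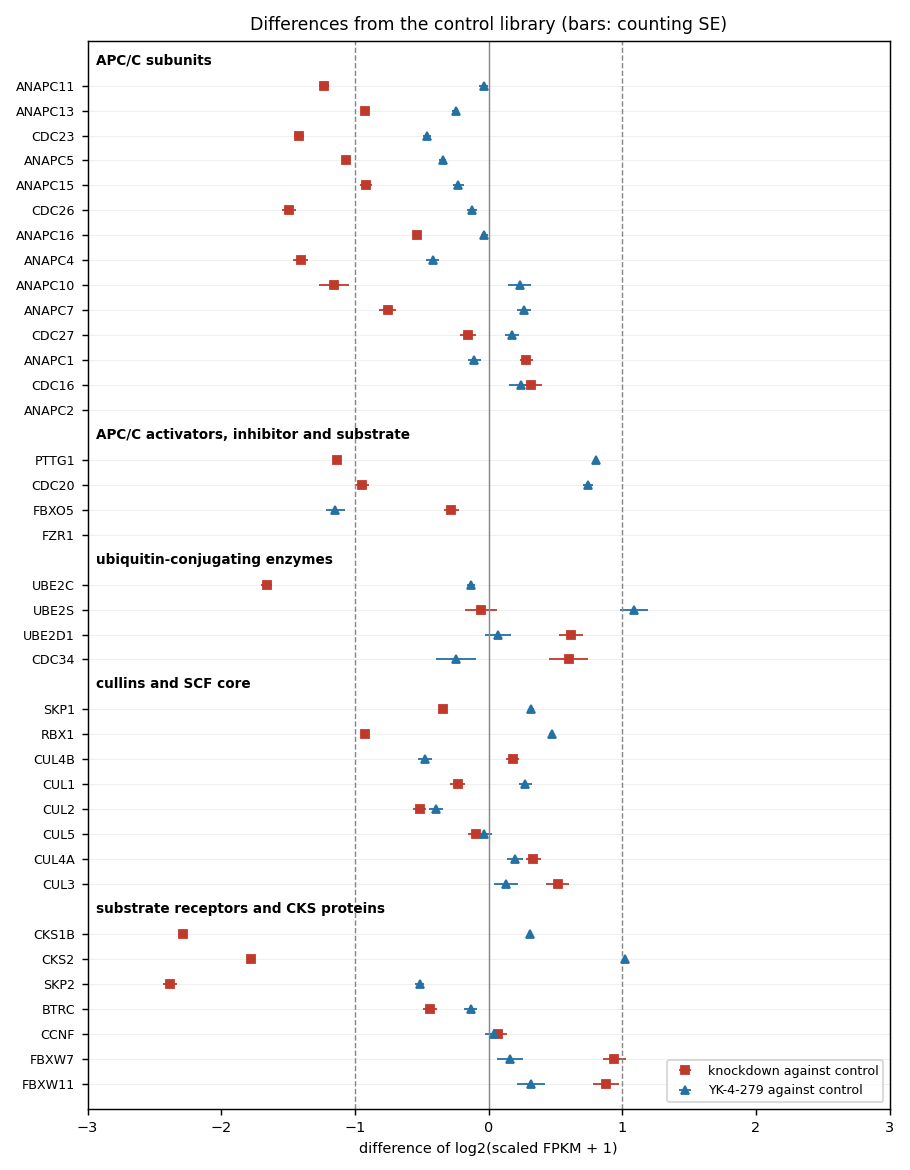
Log2 ratio to the control (horizontal axis) of the 35 compared genes (vertical axis, by role) after knockdown (squares) and with YK-4-279 (triangles); bars are SE from counting alone and dashed lines mark the threshold of 1. After knockdown 11 squares lie left of -1, SKP2 farthest at -2.38, and with YK-4-279 UBE2S and CKS2 lie right of 1 and FBXO5 left of -1.

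With YK-4-279 2 of the 35 genes were higher and 1 was lower, where 2.41% of all compared genes were higher and 1.69% lower (4.11% in all). The higher genes were UBE2S and CKS2, and the lower was the shared locus of FBXO5. The median log2 ratio was 0.04, against 0.03 over all compared genes. Against genes of the same level, UBE2S (1.16) and FBXO5 (-1.07) remained past 1 and CKS2 stood at 0.95. On deposited values without scaling all 35 genes were lower with the compound, CKS2 and UBE2S included. Such ratios still hold the library factors of 0.325 and 2.12, which shift every gene. The share of all compared genes under that setting is not given here. The comparison uses the same control library as that of the knockdown.

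The treated libraries were also set against each other. Relative to YK-4-279, 12 of the 35 genes had lower values after knockdown and 0 had higher ones, where 15.3% of all compared genes were lower and 14.5% higher (29.8% in all). CKS2 was 6.96-fold lower (log2 ratio -2.80), CKS1B 6.04-fold (-2.60), PTTG1 3.83-fold (-1.94), SKP2 3.65-fold (-1.87) and CDC20 3.23-fold (-1.69). UBE2C (-1.53), RBX1 (-1.40), ANAPC10 (-1.39), CDC26 (-1.36), ANAPC11 (-1.19), UBE2S (-1.14) and ANAPC7 (-1.02) made up the rest. Against genes of the same level, 6 of the 35 genes stayed lower by at least 1, as did 895 of all 9939: CKS2, CKS1B, SKP2, ANAPC10, CDC20 and UBE2S.

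Counted by library, the knockdown library was the lowest of the 3 for 24 of the 35 genes and the highest for 10, or 68.6% and 28.6%. Over all 9939 compared genes these shares were 43.4% and 44.2%. The control was the highest for 40.0% of the 35 genes and the YK-4-279 library for 31.4%, against 31.0% and 24.8% of all compared genes. These shares are not matched for level, and 15 of the 35 genes fell in the top level group. In 13 of the 24 the control was the highest, and in the other 11 the YK-4-279 library was. Those 11 were ANAPC7, ANAPC10, CDC27, CDC20, SKP1, CUL1, RBX1, CKS1B, CKS2, UBE2S and PTTG1. FBXO5, the 1 gene lowest with YK-4-279 and highest in the control, and ANAPC1, CUL4B and CDC34, lowest with the compound and highest after knockdown, went other ways. CDC16, CUL3, CUL4A, FBXW7, FBXW11, UBE2D1 and CCNF were lowest in the control and highest after knockdown.

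Other genes of the pathway were taken from 5 lists. Over all compared genes 17.0% were lower and 17.3% higher after knockdown, or 9.99% and 14.8% against genes of the same level. With YK-4-279, 1.69% of all compared genes were lower and 2.41% higher. The counts of the lists stand beside these shares. Of 28 substrates of the APC/C, 13 were lower and 0 higher after knockdown (median -0.99), and 2 were lower and 0 higher with YK-4-279 (median 0.28). At matched level, 4 of the 28 were lower after knockdown, with a median of -0.42. The 4 were AURKB (-1.56), CDC6 (-1.54), SGOL1 (-1.16) and TK1 (-1.14), and CCNB1 stood at -0.99. AURKB, a mitotic kinase, had 151 scaled FPKM in the control, 24.8 after knockdown and 95.4 with YK-4-279 (log2 ratios -2.56 and -0.65). CCNB1, or cyclin B1, had 283, 72.8 and 564 (-1.94 and 0.99), the order seen for PTTG1 and CDC20. CDC6, which licenses replication origins, had 29.9, 7.03 and 9.52 (-1.94 and -1.55), so that both treated libraries were low, and CDCA5, a protector of cohesion, was the second lower gene with the compound (-1.08).

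Of 11 compared genes of the spindle checkpoint and other regulators of the APC/C, 4 were lower and 0 higher after knockdown (median -0.96), and 0 passed the threshold with YK-4-279 (median 0.09). Against genes of the same level, 3 were lower after knockdown, USP37 (-1.26), MAD2L1 (-1.21) and USP44 (-1.05), with a median of -0.70 over the 11. MAD2L1, which sequesters CDC20 at unattached kinetochores, had 151 scaled FPKM in the control, 31.9 after knockdown and 176 with YK-4-279 (log2 ratios -2.21 and 0.22). TTK, the kinase at the head of the checkpoint, stood at -1.33 and BUB3, which recruits checkpoint proteins to kinetochores, at -1.21 after knockdown. At matched level TTK stood at -0.70 and BUB3 at -0.26, short of the threshold.

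Substrates of the SCF and of CUL4 ligases had no common direction. Of 14 compared, 5 were higher and 4 lower after knockdown, and 0 were higher and 2 lower with YK-4-279. At matched level, 6 were higher and 3 lower after knockdown. The CDK inhibitor CDKN1C had 0.300 scaled FPKM in the control, 5.88 after knockdown and 0.357 with YK-4-279 (log2 ratios 2.40 and 0.06). WEE1, the kinase that restrains CDK1, had 3.09, 14.5 and 3.01 (1.92 and -0.03), and MCL1, a survival factor, had 5.28, 21.7 and 7.11 (1.86 and 0.37). CCNE2, or cyclin E2, had 84.8, 14.5 and 14.3 (-2.47 and -2.49), or -1.65 and -2.42 against genes of the same level. CCND1, or cyclin D1, had log2 ratios of -2.32 and -0.70, and BORA, an activator of mitotic kinases, -1.68 and 0.08. CDKN1B, whose product SKP2 and CKS1B recognise and which was also among the 5 higher genes, had 1.86, 5.34 and 1.48 (1.15 and -0.21). Against genes of the same level it stood at 0.69 after knockdown, short of the threshold. These are values of messenger RNA, the protein that SKP2 acts on was not measured, and a link between the 2 genes was not tested. With the compound the second lower gene was CLSPN, which encodes claspin (-1.04).

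The machinery that attaches NEDD8 to cullins and the COP9 signalosome, which removes it, had 7 of 21 lower and 1 higher after knockdown (median -0.81), and 2 lower and 0 higher with YK-4-279 (median -0.09). Set against genes of like level, 3 were lower and 0 higher after knockdown, with a median of -0.21. The 3 were UBE2F (-1.31), DCUN1D2 (-1.31) and COPS7A (-1.07), while COPS3 (-0.42) and DCUN1D3 (0.86) were short of the threshold. COPS7A, a signalosome subunit, had 33.6 scaled FPKM in the control, 9.64 after knockdown and 15.5 with YK-4-279 (log2 ratios -1.70 and -1.07). UBE2F, a NEDD8-conjugating enzyme, stood at -1.52 and -0.84, COPS3 at -1.42 and -0.09, DCUN1D2, which aids neddylation, at -0.79 and -1.03, and its relative DCUN1D3 at 1.02 and 0.09.

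Of 34 compared adaptors and receptors of other cullin ligases, 6 (17.6%) were higher and 4 (11.8%) lower after knockdown (median 0.02), and 0 passed the threshold with YK-4-279 (median 0.11). Against genes of the same level, 4 were higher after knockdown, RHOBTB3 (1.63), RNF7 (1.19), FBXO11 (1.08) and UBE2D3 (1.01). On that measure 3 were lower, DTL (-1.61), TCEB1 (-1.05) and DDB2 (-1.02). Without matching for level, RHOBTB3 (1.76), SOCS2, a receptor of CUL5 ligases, and the scaffold CUL7 (1.21) were the highest. With matching, SOCS2 (0.95), CUL7 (0.69) and SPOP (-0.44) were short of the threshold. SOCS2 had 0.459 scaled FPKM in control cells, 3.13 after knockdown and 0.693 with the compound. DTL, the CUL4 receptor that removes licensing factors in S phase, had 43.8 scaled FPKM in the control, 8.51 after knockdown and 29.1 with YK-4-279 (-2.24 and -0.57), and SPOP, a receptor of CUL3 ligases, stood at -1.27 and -0.62. TCEB1, the elongin C adaptor, had 69.9, 18.6 and 95.2 (-1.85 and 0.44).

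**Figure D4:**
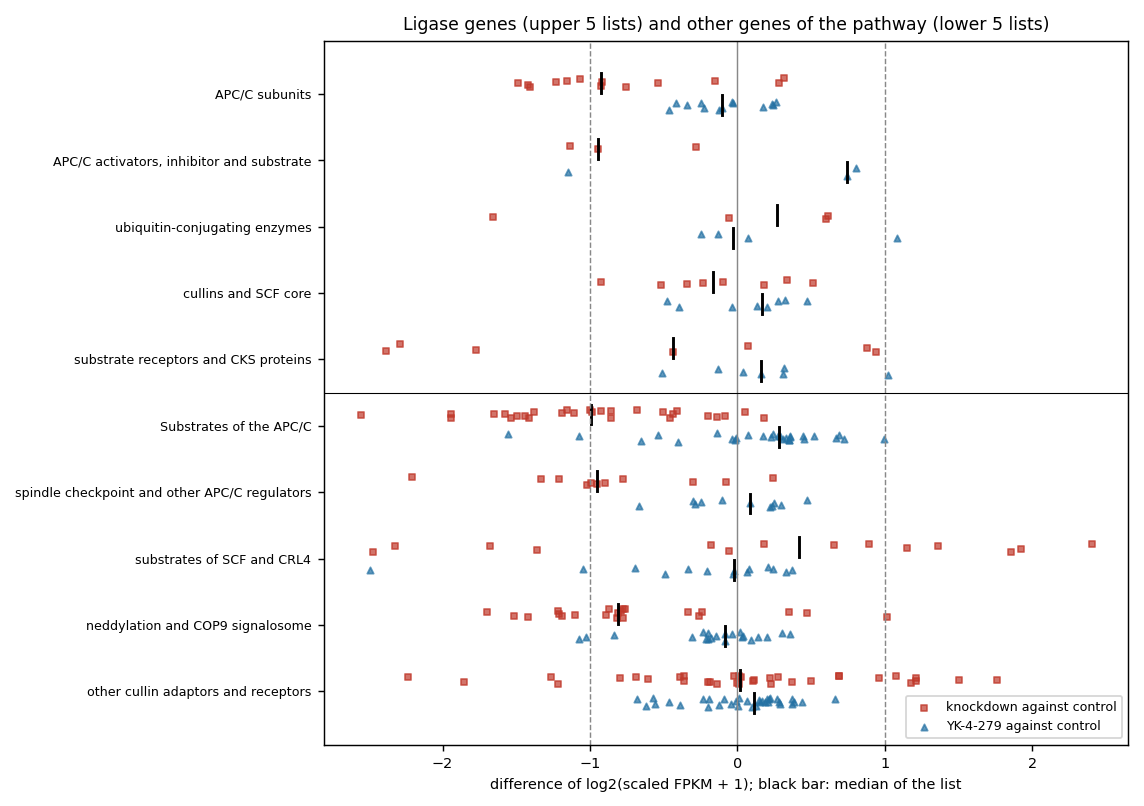
Log2 ratio to the control (horizontal axis) for each compared gene of the 5 role groups (upper) and of the 5 other pathway lists (lower), after knockdown (squares) and with YK-4-279 (triangles); black bars are list medians and dashed lines mark the threshold of 1. The APC/C subunits have medians of -0.92 and -0.11, and the substrates of the APC/C of -0.99 and 0.28.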

How the data were processed

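Messenger RNA of 3 TC32 libraries was measured. The authors deposited FPKM per locus, and per the submitters' processing notes used CASAVA 1.8.2, TopHat and Cufflinks 2.2.1 on GRCh37 (hg19). How libraries were scaled, which annotation and strand setting served, and how reads with several matches were treated is not given in the sources used here. For 11 of the 37 genes GENCODE release 29 names at least 1 pseudogene, among them CKS1B, CKS2's relative, with 6, UBE2C with 4 and UBE2S with 2, and reads may have been shared with these copies.

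Loci of 1 name were summed, and a joined name that holds a listed gene was counted for that gene. Libraries were scaled on the median ratio to the geometric mean over named genes that were above 0 throughout and averaged 1 FPKM or more, and 1 was added before log2. The scaling assumes that the median gene did not differ. Comparisons with genes of the same level subtract the median of 1 of 20 bins. Fragments were estimated from the lowest values of 156 olfactory receptor genes, at which 1 fragment in 1 kb was worth 0.0654, 0.0174 and 0.0127 FPKM in the control, knockdown and YK-4-279 libraries, and from median GENCODE transcript lengths, giving about 2.43e+07, 1.46e+07 and 1.85e+07 fragments over the 8434 compared genes with such a length. They are approximate. The method was tested on simulated data with planted changes and no trend of ratio with level. That test therefore does not bear on the level trend seen after knockdown. Python 3.11.15, pandas 2.3.3 and numpy 2.4.6 were used.

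Genes named are those past the threshold in any comparison, the highest and lowest of each role group in each comparison with the control, and up to 3 of each end per pathway list. CDKN1B was named for its link to SKP2, and values of paralogue pairs, PTTG1 and CDC20, and the remaining receptors and enzymes were added after the data were seen. Protein sequences were not used here. Genes and lists were chosen with earlier results of these data known.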

Additional observations from a re-analysis of the deposited data

How the results depend on the processing

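With 1 library per group no replicate could be left out. No paired analysis was possible because each group has 1 library. The counts below are of the ligase genes. Shares over all compared genes were given above for the comparison with genes of the same level, but not for the other alternatives. These counts show how calls move with the setting, not whether the ligase genes stand apart. Without scaling, the library factors of 0.325, 1.44 and 2.12 stay in the ratios and shift every gene. On deposited FPKM without scaling, 31 genes were lower after knockdown (median -2.48), 35 were lower and 0 higher with YK-4-279 (median -2.35), with CKS2 at -1.68 and UBE2S at -1.40, and 5 were lower and 3 higher in knockdown against YK-4-279. Deposited ratios centred on their median gave 2 higher after knockdown and 0 higher with YK-4-279. Scaling on the upper quartile gave 2 higher and 7 lower after knockdown, and 1 higher against YK-4-279. Scaling on all named genes, chosen after seeing the data, gave 19 lower after knockdown, and 0 higher and 2 lower with YK-4-279. A pseudocount of 0.1 gave 2 higher after knockdown and 1 higher against YK-4-279. Relative to genes of the same level, 2 were lower after knockdown, 1 was higher with YK-4-279, and 6 were lower against YK-4-279. Without joined names 0 were lower with YK-4-279. A threshold of 1.5-fold gave 4 higher in each of the 3 comparisons. The lower calls of SKP2 and CKS1B after knockdown kept their direction and side of the threshold under all 12 alternatives, at -4.47 to -1.58 and -4.43 to -1.34. Other filters and the choice of the highest locus changed no count of higher or lower genes by over 1.5 times. Counting error is largest for ANAPC2 and FZR1, which were not compared, and among compared genes for CDC34, and the spread between cultures is unknown.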
